A study of Mus musculus with 4 samples.

Results

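The adult globin genes of the mouse are the beta globin genes Hbb-bs and Hbb-bt and the alpha globin genes Hba-a1 and Hba-a2. They were taken by symbol from 4 droplet single-cell RNA matrices and make up 4 of the 32285 genes listed there. These 4 genes were chosen by their measured levels, since earlier results of the same data had put them among the largest differences between libraries, so their levels over the libraries are a description and carry no test. Each matrix came from LSK cells, the Lin-Sca-1+Kit+ sort gate, in which blood stem cells lie beside early progenitors, sorted from the bone marrow of mice aged 8 to 12 weeks after bead enrichment for Cd117. Bone marrow of 5 mice was pooled into 1 library for each of 4 genotypes: control (Vav1-iCre/+), Ikk2CA (Vav1-iCre/+, Ikk2-CA flox/+), Jak2V617F (Vav1-iCre/+, Jak2 V617F flox/+) and double mutant, which carries Vav1-iCre/+ with both the Ikk2-CA flox/+ and the Jak2 V617F flox/+ allele. Ikk2-CA encodes a version of the NF-κB kinase that is always on, placed behind a stop cassette, and Jak2 V617F is a hyperactive kinase variant found in myeloproliferative neoplasms. Vav1-iCre is active in blood-forming cells and was carried by all groups, controls included, and the crosses also brought in an NF-κB EGFP reporter. With 1 pooled library per genotype there is no measure of the spread between animals.

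Adult hemoglobin is a tetramer of alpha and beta chains, each holding a heme. Its genes are transcribed at very high levels in maturing erythroblasts, where regulators such as Gata1, Klf1 and Tal1 act on the promoters and distant enhancers of the loci. Hbb-bs and Hbb-bt both encode adult beta chains and Hba-a1 and Hba-a2 both encode adult alpha chains. Stem cells and early progenitors, the cells of the LSK gate, lie before the stage of hemoglobin synthesis.

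In the GRCm38 annotation Hbb-bs (ENSMUSG00000052305) lies at chr7:103826534-103828096 and Hbb-bt (ENSMUSG00000073940) at chr7:103812524-103813996, both on the minus strand. Hba-a1 (ENSMUSG00000069919) lies at chr11:32283511-32284465 and Hba-a2 (ENSMUSG00000069917) at chr11:32296489-32297298, both on the plus strand. Each gene has 3 exons and no annotated gene overlaps it. The coding sequences of Hbb-bs and Hbb-bt differ by 1 of 441 bases, and those of Hba-a1 and Hba-a2 by 1 of 426 bases. The last 300 bases of the transcripts, which matter most for a count made from transcript ends, were 86.1% identical in the beta pair with an identical run of 140 bases, and 89.6% identical in the alpha pair with an identical run of 161 bases. Of the 33 differing positions of the alpha pair 32 were gaps of the alignment and not mismatched bases, against 6 of 42 in the beta pair. A read from within such an identical run fits both genes of a pair. The split within the alpha pair is thus uncertain, and so is that within the beta pair where both genes were counted together. The promoters of the beta pair are shown because Hbb-bs and Hbb-bt behaved differently in these libraries. That of Hba-a1 stands for both alpha genes, since it shares a run of 247 of 250 bases with that of Hba-a2. The 3 sequences are the 250 bases before the RefSeq start (GRCm38.p6) in the direction of the gene, for Hbb-bs chr7:103827929-103828178, for Hbb-bt chr7:103813924-103814173 and for Hba-a1 chr11:32283422-32283671. Each overlaps the gene span given above, because that annotation places the start of the gene further upstream than RefSeq does. Capitals mark matches to 4 motifs on either strand: CACCC, as in the box that Klf1 binds, the CCAAT box, GATAA, as in Gata1 sites, and ATATAA, as in a TATA box.
Hbb-bs: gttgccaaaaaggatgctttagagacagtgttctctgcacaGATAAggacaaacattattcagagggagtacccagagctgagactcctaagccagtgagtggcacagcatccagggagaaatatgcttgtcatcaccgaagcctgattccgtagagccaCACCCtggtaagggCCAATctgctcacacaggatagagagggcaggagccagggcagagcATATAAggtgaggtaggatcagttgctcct
Hbb-bt: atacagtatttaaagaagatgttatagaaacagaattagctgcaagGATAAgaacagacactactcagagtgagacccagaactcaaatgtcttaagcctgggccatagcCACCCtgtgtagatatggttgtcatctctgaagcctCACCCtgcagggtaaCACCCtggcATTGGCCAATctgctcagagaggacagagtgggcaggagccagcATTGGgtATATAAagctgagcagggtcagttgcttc
Hba-a1: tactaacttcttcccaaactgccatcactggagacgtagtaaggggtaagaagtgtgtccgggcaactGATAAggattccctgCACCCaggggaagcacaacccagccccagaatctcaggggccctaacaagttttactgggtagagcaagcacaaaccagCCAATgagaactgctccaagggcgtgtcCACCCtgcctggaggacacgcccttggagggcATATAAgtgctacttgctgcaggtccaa
The upstream sequences of Hbb-bs and Hbb-bt were 70.5% identical. Hbb-bs held 1 match to each of the 4 motifs. Hbb-bt also held 1 GATAA and 1 ATATAA, but 3 CACCC and 3 CCAAT matches, and 2 of its CCAAT matches were on the minus strand, where the motif reads ATTGG. Its stretch ATTGGCCAAT holds a match on each strand. Hba-a1 held 2 CACCC matches and 1 of each other motif. Among 32851 promoters of the same length, 52.0% held CACCC, 33.8% CCAAT, 22.6% GATAA and 9.10% ATATAA, so a single match says little about a gene. Such matches describe letters only and are no evidence of binding.

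Barcodes were kept with 500 to 7500 genes and under 10% mitochondrial unique molecular identifiers (UMIs), which left 8055 of 9950 control, 9865 of 10330 Ikk2CA, 14156 of 15620 Jak2V617F and 5268 of 5774 double-mutant barcodes. The median kept barcode held 10606, 17726, 11106.5 and 24915 UMIs in that order, and the kept sums ran from 102362297 to 197836491 UMIs. Of the sort markers, Kit was at 130.6 and Ly6a, which encodes Sca-1, at 176 CPM (counts per 1000000 UMIs) in kept barcodes with no adult globin UMI, and clusters with markers of B, plasma, T and neutrophil cells were present beside progenitors. The libraries shared 195 barcode sequences. Xist was at 1176, 250.2, 0.257 and 319.8 CPM, so the pools differed in sex. All intervals given are 95% and cover counting error only.

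Among kept barcodes, Hbb-bs was at 12.4 CPM in control, 444 in Ikk2CA, 69.9 in Jak2V617F and 57.0 in the double mutant. Hbb-bt was at 48.9, 140.3, 84.2 and 70.3 CPM. The control library therefore held about 4 Hbb-bt UMIs for each Hbb-bs UMI, with 5003 against 1268, and the Ikk2CA library held fewer Hbb-bt than Hbb-bs UMIs, with 27753 against 87757. Hba-a1 was at 7.14, 186, 22.3 and 25.4 CPM and Hba-a2 at 4.87, 140.7, 18.3 and 22.7 CPM in the same order. In control all 4 genes were at their lowest, and in Ikk2CA all 4 were at their highest.

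Over control, all 4 genes were at least 2-fold higher in Ikk2CA, against 2.14% of the 8377 genes that reached 10 CPM in one library or both. Hbb-bt stood apart with a ratio of 2.87 (interval 2.79 to 2.96), where the other 3 genes had ratios of 26.1 to 35.8. In Jak2V617F 3 of 4 passed 2-fold, against 0.297% of 8405 genes, and Hbb-bt at 1.72 (1.67 to 1.78) did not. In the double mutant 3 of 4 passed it, against 0.832% of 8294 genes, and Hbb-bt at 1.44 (1.39 to 1.49) did not. The double mutant against Ikk2CA had 3 of 4 genes at 0.5 times or less, against 2.06% of 7752 genes, with ratios of 0.128 for Hbb-bs, 0.136 for Hba-a1 and 0.162 for Hba-a2, and 0.501 for Hbb-bt. Against Jak2V617F the double mutant had 0 of 4 genes past 2-fold either way (0.715% of 8247 genes were higher and 1.13% lower), with ratios of 0.815 to 1.25. The rule that chose the genes used these levels, and nothing is read from the counts. The median gene had a log2 ratio over control of -0.23 in Ikk2CA, -0.0044 in Jak2V617F and -0.24 in the double mutant, so the ratios of Ikk2CA and the double mutant are somewhat larger relative to that median.

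Most of these UMIs sat in very few barcodes. The name globin-dominated is used here for barcodes in which the 4 genes together made up at least 10% of all UMIs, a limit set after the data had been seen. Of 37344 kept barcodes 26 were globin-dominated: 0 in control, 21 in Ikk2CA, 4 in Jak2V617F and 1 in the double mutant. The 21 barcodes held 88.4% of the adult globin UMIs kept in Ikk2CA, the 4 barcodes 55.6% of those in Jak2V617F and the single barcode 58.3% of those in the double mutant. That single barcode carried 6912 of the 8104 Hbb-bs UMIs of the double-mutant library. Just inside the limit was a barcode with 10.5% adult globin among its UMIs and just outside it 1 with 9.59%.

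Without the globin-dominated barcodes the differences between libraries took another shape. Hbb-bs was then at 12.4, 46.7, 10.8 and 8.38 CPM in control, Ikk2CA, Jak2V617F and the double mutant, so it was lower than control in both libraries that carry Jak2 V617F (ratios of 0.875 and 0.677). Hba-a1 was at 7.14, 16.7, 2.95 and 2.48 CPM and Hba-a2 at 4.87, 12.0, 2.50 and 2.88 CPM, in the same pattern as Hbb-bs. Hbb-bt was at 48.9, 30.2, 70.2 and 59.5 CPM: it was lower in Ikk2CA than in control, with a ratio of 0.618 (0.595 to 0.641), and higher in Jak2V617F, with a ratio of 1.44 (1.39 to 1.48). In this set of barcodes Hbb-bt and Hbb-bs thus moved in opposite directions from control in each of the 3 mutant libraries. With the barcodes of at least 20 adult globin UMIs left out as well, Hbb-bs was at 6.78, 18.4, 6.63 and 5.52 CPM and Hbb-bt at 34.7, 17.3, 50.5 and 32.9 CPM. Hbb-bt of the double mutant then lay just under control, where it had been above it, so both beta genes were under control in that library. Hbb-bs of Jak2V617F then had a ratio to control of 0.978 (0.890 to 1.08).

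**Figure D1:**
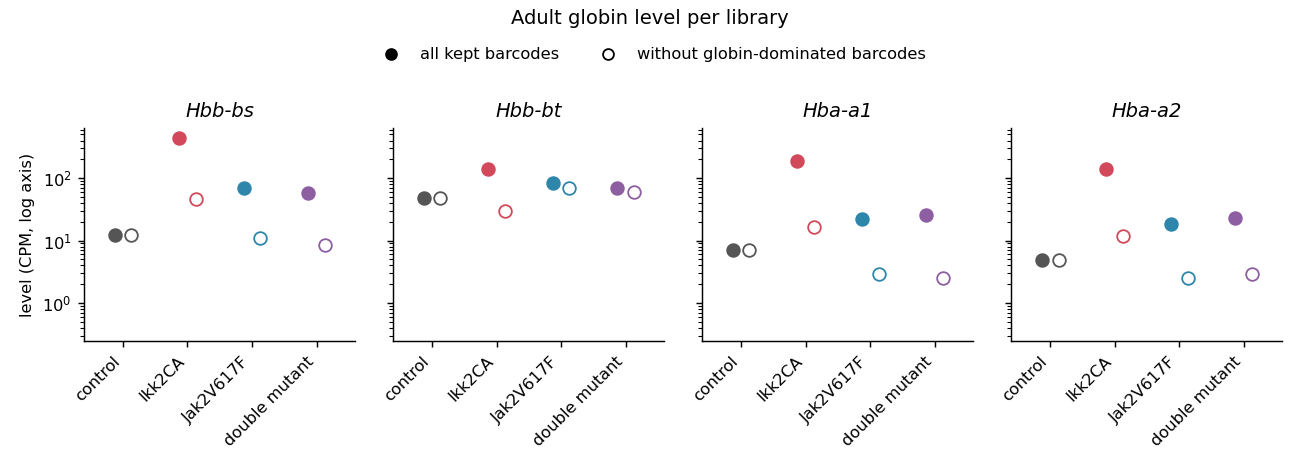
Level of each adult globin gene in CPM (log axis) in the 4 libraries, over all kept barcodes (filled points) and without the globin-dominated barcodes (open points); each point is 1 library. Leaving out 26 barcodes took Hbb-bs in Ikk2CA from 444 to 46.7 CPM, while Hbb-bt in Jak2V617F and the double mutant hardly changed place.

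The genes differed in how far they were concentrated. The 1% of kept barcodes richest in a gene held 65.9%, 96.2%, 94.3% and 92.6% of the Hbb-bs UMIs of control, Ikk2CA, Jak2V617F and the double mutant. For Hbb-bt the same 1% held 38.1%, 89.0%, 42.7% and 41.4%, and outside Ikk2CA this beta gene was thus spread over more barcodes than Hbb-bs. A median gene of at least 10 CPM had 6.25% to 9.06% of its UMIs there. Reaching 50% of the Hbb-bs UMIs took 29, 9, 3 and 1 barcodes. Reaching 50% of the Hbb-bt UMIs took 138, 10, 219 and 87 barcodes. In ranked order the counts per barcode of the mutant libraries dropped steeply after the globin-dominated barcodes and then declined slowly. The highest kept control barcode held 452 adult globin UMIs, against 15096 in Ikk2CA, 5793 in Jak2V617F and 14537 in the double mutant.

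**Figure D2:**
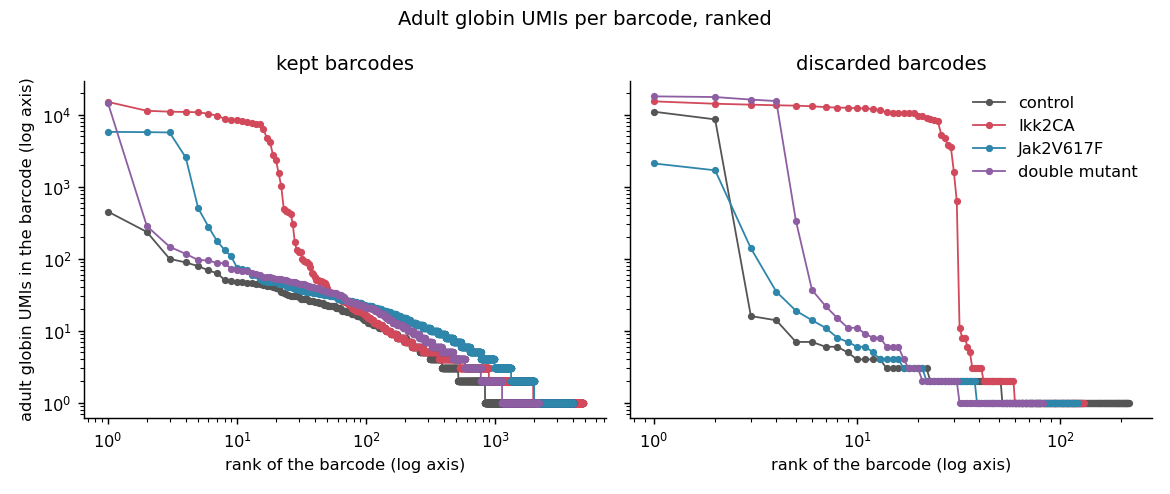
Adult globin UMIs (sum of the 4 genes, log axis) of each barcode with at least 1, against its rank within the library (log axis), for kept barcodes (left) and discarded ones (right); each point is a barcode and each line a library. Kept Ikk2CA barcodes have a shelf near 10000 UMIs that ends after about 20 barcodes, kept control barcodes start at 452, and among discarded barcodes all 4 libraries have barcodes above 1000.

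Globin-dominated barcodes held all 4 genes, in much the same proportions in all libraries. Hbb-bt made up 21.7%, 19.2% and 18.2% of their beta globin UMIs in Ikk2CA, Jak2V617F and the double mutant, and the alpha genes made up 37.1%, 32.4% and 41.9% of all adult globin UMIs. Hba-a1 made up 56.9%, 55.1% and 53.6% of the alpha UMIs. These are shares of UMIs and not of RNA mass. In single barcodes the adult globin genes took up to 86.5% of the UMIs, and the median was 49.9% in Ikk2CA and 62.5% in Jak2V617F. The number of detected genes ran from 550 to 5523.

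What else these barcodes held was measured in CPM counted over the UMIs that are not globin, against the 24410 kept barcodes with no adult globin UMI. Ikk2CA gave 209398 of the 228423 non-globin UMIs of the 26 barcodes. The values thus describe mainly that library, set against barcodes of all libraries. The late erythroid list (39 genes with a feature, membrane and enzyme genes of maturing red cells) had 39 of 39 tested genes at least 2-fold higher, with a median log2 ratio of 5.52, where 13.6% of 8492 genes passed that limit. Among its most abundant members the carbonic anhydrase gene Car2 was at 4912 against 417 CPM, the biliverdin reductase gene Blvrb at 2793 against 44.5 and Rhd, which encodes a blood group protein, at 1313 against 0.817. Of the heme synthesis list, the enzymes that build the cofactor of hemoglobin, 13 of 14 were at least 2-fold higher, with Alad at 1488 against 91.5 CPM. Of 12 cycling genes 11 were at least 2-fold higher, with Mki67 at 1016 against 183 CPM. Of 11 genes of the LSK and stem cell list 8 were at 0.5 times or less, where 24.1% of all genes were, and Hlf, a stem cell transcription factor, was at 21.9 against 135 CPM. Of the 26 barcodes 20 fell into the erythroid-like cluster. The globin genes were left out of the clustering, but each barcode had first been scaled to its total with globin included.

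Values of other cell types and of doublet scores moved with this set. The B cell list summed to 821 CPM in the globin-dominated Ikk2CA barcodes, with 2 of 11 genes at 0. Ikk2CA barcodes with no adult globin UMI had more, at 1685 CPM. The neutrophil list was at 86.1 against 1095 CPM in the same sets. In the globin-dominated barcodes of Jak2V617F and the double mutant both lists were at 0, where 1 UMI was worth 79.9 and 154 CPM. Barcodes there with no adult globin UMI had 105 and 139 CPM of the B cell and 1903 and 1240 of the neutrophil list. All 21 globin-dominated barcodes of Ikk2CA were among those with the highest doublet scores of their library, as was the single one of the double mutant, while 0 of 4 were in Jak2V617F. Without the barcodes of highest doublet score the summed level of the 4 genes in Ikk2CA over control had a log2 ratio of -0.01, against 3.64 with them. One of the 26 had a barcode sequence found in another library. The doublet scores were computed with the globin genes included, so they are not independent of the globin counts that define this set. The part of doublets in these levels was not tested.

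The filter had removed more adult globin than it kept. Discarded barcodes held 19995 adult globin UMIs in control, 306808 in Ikk2CA, 4203 in Jak2V617F and 68019 in the double mutant, which was 72.7%, 63.0%, 10.6% and 73.2% of all adult globin UMIs, where discarded barcodes held 0.847% to 4.67% of all UMIs. Nearly all of it sat in barcodes with under 500 genes. There the 4 genes were at 55243 CPM in control, 598347 in Ikk2CA, 15266.5 in Jak2V617F and 355978 in the double mutant. In barcodes with 10% or more mitochondrial UMIs they were at 64.7, 128, 72.4 and 49.7 CPM, and in those with over 7500 genes at 47.0, 58.5, 35.7 and 55.4 CPM.

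Globin-dominated barcodes made up this discarded globin too: there were 2 in control, 31 in Ikk2CA, 3 in Jak2V617F and 5 in the double mutant, all with under 500 genes, and they held 98.4%, 99.9%, 93.8% and 99.7% of the discarded adult globin UMIs. Control, with 0 such barcodes among 8055 kept ones (an upper bound of 0.0372% of barcodes from 3 counts), had 2 among its 1895 discarded ones, with 11031 and 8635 adult globin UMIs. Over kept and discarded barcodes the count was 2, 52, 7 and 6, or 0.0201%, 0.503%, 0.0448% and 0.104% of the barcodes. Hbb-bt made up 21.0%, 17.9%, 18.1% and 21.5% of their beta globin UMIs, close to the share in the kept ones. They had a median of 267 to 375 genes by library, and adult globin took a median of 94.2% of their UMIs. On the same scale, Car2 was at 13913, Blvrb at 6433 and Prdx2, an antioxidant enzyme gene, at 9126 CPM in them. With so few other UMIs, 1 UMI was worth 37.4 CPM there.

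Barcodes with at least 20 adult globin UMIs, called globin-rich, numbered 64, 82, 131 and 117 in the 4 libraries. They held 37.3%, 95.02%, 69.2% and 76.8% of the kept adult globin UMIs. In these 394 barcodes together the 12 genes with the largest ratio over barcodes with no adult globin UMI included Slc4a1, the red cell anion exchanger (45.1 against 0.0277 CPM), Apol11b, Alas2, the erythroid enzyme of the first step of heme synthesis (43.5 against 0.0388), Trim10, Btnl10, Cldn13 (99.4 against 0.432), Dmtn, Rhd, Sptb, Tmem56 and Asb17os. The 12 genes had ratios of 79.5 to 1629. They were found in a part of the barcodes only, and some came mostly from Ikk2CA. Slc4a1 was found in 37 of the 394 barcodes, with 278 of its 388 UMIs in Ikk2CA. Apol11b was found in 27 (166 of 192 UMIs in Ikk2CA) and Alas2 in 39 (305 of 374). Cldn13 was less uneven, in 71 barcodes with 399 of 855 UMIs in Ikk2CA. Of 36 tested late erythroid genes 28 were at least 2-fold higher (median log2 ratio 1.96), as were 12 of 14 heme synthesis genes and 12 of 19 early erythroid genes, where 1.98% of 8202 genes were. Of 18 regulators of the globin loci 3 were, and the median was 0.15, with Lmo2 at 519 against 499 CPM and Myb at 215 against 275. By library, the late erythroid list summed to 8266, 11077, 4336 and 2943 CPM in globin-rich barcodes, against 2669.6, 2489, 2537 and 2591 CPM in those with no adult globin UMI, so the double mutant had by far the smallest difference. With a limit of 50 UMIs, 6.29% of 8321 genes were at least 2-fold higher. The sum of all globin-rich barcodes mixes barcodes of unlike make-up, which the next values separate.

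Of the kept barcodes with at least 10 adult globin UMIs, most in control, Jak2V617F and the double mutant held Hbb-bt and little else of the 4 genes. In Ikk2CA 78 did, and 70 had at most 40% from Hbb-bt, among them the 21 globin-dominated barcodes. Of the 899 kept barcodes with at least 10 adult globin UMIs, 675 had at least 80% of them from Hbb-bt, 193 had at most 40%, and only 31 lay between. The 675 barcodes, called Hbb-bt-led here after the data had been seen, held 14154 Hbb-bt, 81 Hbb-bs and 48 alpha globin UMIs, and 580 of them held no UMI of the other 3 genes. They numbered 103 in control, 78 in Ikk2CA, 303 in Jak2V617F and 191 in the double mutant, which was 66.9%, 50.6%, 84.2% and 82.7% of the barcodes with at least 10 adult globin UMIs and 1.28%, 0.791%, 2.14% and 3.63% of all kept barcodes. No UMI of the other 3 genes was found in 94, 49, 273 and 164 of them. With at least 20 UMIs asked for, Ikk2CA had 34 Hbb-bt-led barcodes against 45 with at most 40% Hbb-bt, of which 24 were not globin-dominated. The largest Hbb-bt count in such a barcode was 63, 99, 108 and 117. They carried 39.5%, 5.97%, 37.6% and 47.3% of the Hbb-bt UMIs of their library. The libraries differed in depth, and depth sets how many barcodes reach 10 UMIs. After thinning each barcode to 5000 UMIs, with the limit lowered to 4 adult globin UMIs, the share was 1.68%, 0.666%, 2.50% and 2.26%, so the double mutant lay above Jak2V617F without thinning and below it with thinning, and Ikk2CA was lowest either way.

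**Figure D3:**
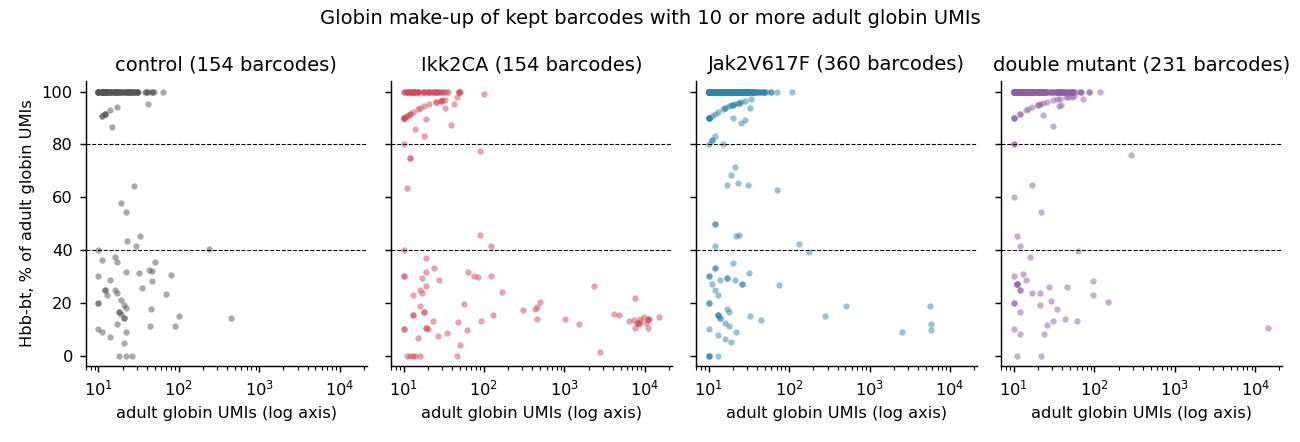
Share of Hbb-bt among the adult globin UMIs (percent) against the number of adult globin UMIs (log axis) for each kept barcode with at least 10, by library; each point is a barcode and the dashed lines mark 40% and 80%. Most barcodes between 10 and about 100 UMIs lie at or near 100% in all 4 libraries, those above 1000 UMIs lie under 40%, and few lie between the lines.

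Apart from the globin-dominated and the Hbb-bt-led barcodes there were 74 kept barcodes that held at least 20 adult globin UMIs, at most 40% of them Hbb-bt, and under 10% adult globin among all UMIs. They numbered 22 in control, 24 in Ikk2CA, 12 in Jak2V617F and 16 in the double mutant. In CPM counted over the UMIs that are not globin and summed over the 4 libraries, 26 of 35 tested late erythroid genes were at least 2-fold higher than in barcodes with no adult globin UMI, with a median log2 ratio of 2.74, where 5.98% of 8355 genes were. Early erythroid genes (16 of 19) and heme synthesis genes (12 of 15) were higher as well. Car2 was at 2651 against 417 CPM, and Klf1 was at 232 against 4.99. Of 11 genes of the LSK and stem cell list 10 were at 0.5 times or less, where 12.8% of all genes were, with Kit at 53.8 against 130.6 CPM and Hlf at 46.8 against 135. The libraries were not alike in this. The late erythroid list summed to 10959.5 CPM in control, 11332 in Ikk2CA and 8637 in Jak2V617F, against 2669.6, 2489 and 2537 CPM in barcodes with no adult globin UMI, whereas the 16 double-mutant barcodes had 2555 against 2591 CPM. The LSK and stem cell list summed to 398, 302 and 782 CPM in the first 3 libraries, against 1490.5, 969.8 and 1397, and to 1192 against 1079 CPM in the double mutant. In Jak2V617F the neutrophil list was at 3980 against 1903 CPM in these barcodes, and its part in the result was not tested. These barcodes were grouped after the data had been seen, and by their globin counts.

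At low counts the make-up of beta globin differed by library. In kept barcodes with 4 to 19 adult globin UMIs, Hbb-bt made up 87.0% of the beta globin UMIs in control, 69.7% in Ikk2CA, 91.7% in Jak2V617F and 91.0% in the double mutant. In those with 1 to 3 UMIs it made up 79.6%, 36.3%, 83.4% and 77.1%. Ikk2CA had the lowest share in both ranges, and 42.8% of its kept barcodes held 1 to 3 UMIs, against 19.6%, 21.5% and 30.3%.

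Few genes of any kind were at least 2-fold higher in Hbb-bt-led barcodes than in kept barcodes with no adult globin UMI, at 0.0859% of 8151. Of the tested genes, 0 of 19 late erythroid, 0 of 9 heme synthesis and 0 of 10 early erythroid ones were. With so low a share of all genes, these counts of 0 say little about the lists. The lists had 39, 15 and 20 genes with a feature, so many were not tested. The median log2 ratio of the late erythroid list was 0.04. By the mean log2 ratio over the 4 libraries, 12 of 16 compared late erythroid genes were above 0 and 6 of 16 were above 0 in every library, where 19.0% of 5208 genes were, with a median of 0.13 against 0.02 for all genes. Car2 was at 546 against 417 CPM, Prdx2 at 461 against 441, Blvrb at 45.7 against 44.5 and Klf1, the erythroid regulator of the beta globin promoter, at 2.64 against 4.99. Of the genes with at most 0.5 times the level (0.945% of all), the lists gave 7 of 7 B cell genes and 8 of 9 neutrophil genes, with S100a9 at 7.46 against 521 CPM and Ebf1, a B cell transcription factor, at 4.35 against 115. The barcodes with no adult globin UMI include the B cell-like and neutrophil-like clusters.

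Several genes of stem cells were higher in Hbb-bt-led barcodes of all 4 libraries, at less than 2-fold for most. Ranked by the mean log2 ratio over the libraries among 5208 genes, the 12 highest included Slc16a11 (1.19), Shisa8 (1.00), Stxbp4 (0.93), Procr (0.93), 1810073O08Rik (0.89), Mecom (0.86), Nkx2-3 (0.80), Ldhb (0.79), Hlf (0.79) and Bex1 (0.75), each above 0 in 4 of 4 libraries. Procr, which encodes the endothelial protein C receptor and marks stem cells, was at 49.0, 23.2, 43.0 and 20.7 CPM in the Hbb-bt-led barcodes of control, Ikk2CA, Jak2V617F and the double mutant, against 25.5, 9.85, 24.97 and 12.4 CPM in barcodes with no adult globin UMI. Mecom, a stem cell transcription factor, was at 94.1, 35.1, 76.0 and 45.7 CPM against 41.1, 16.2, 49.3 and 32.4 CPM. Of the 11 compared genes of the LSK and stem cell list, 7 were above 0 in all 4 libraries, where 19.0% of all genes were, and the median was 0.38. The list includes Procr, Hlf and Mecom. Kit (0.19), Cd34 (0.20), Cd48 (-0.10) and Flt3 (-0.11) had mean log2 ratios nearer to 0 and were above 0 in 3, 2, 2 and 1 of the 4 libraries. Hbb-bt-led barcodes were somewhat deeper, with medians of 11040, 17311, 13469 and 26319 UMIs against 10256, 15378, 10126 and 22610, and the part of depth was not tested. The barcodes with no adult globin UMI also span classes other than stem cells, such as the B cell-like one. The part of this mix of classes in the ratios was not tested.

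By cluster, Hbb-bt and Hbb-bs had different orders. Without globin-dominated barcodes, Hbb-bt in the HSC-like class (named from 20 stem cell markers) was at 103, 145, 123 and 191 CPM in control, Ikk2CA, Jak2V617F and the double mutant, over 193, 12, 2211 and 52 barcodes. The granulocyte-monocyte-like class had 2.68, 4.42, 7.18 and 2.15 CPM and the B cell-like class 2.44, 6.80, 14.9 and 1.51 CPM. In each library the HSC-like interval thus lay above those of both classes. Without barcodes of at least 20 adult globin UMIs the double-mutant HSC-like value was 53.9 CPM over 50 barcodes, and Hbb-bt was still higher there than in the granulocyte-monocyte-like class in all 4 libraries. The lymphoid-primed-like class lay between, at 31.4, 72.2, 39.7 and 48.3 CPM. The erythroid-like class had 126, 379, 119 and 678 CPM of Hbb-bt, and its 8 double-mutant barcodes include 1 with 216 Hbb-bt UMIs. Another 2199 control barcodes were in an unnamed cluster that had Hlf, Txnip, Procr and Xist among its leading genes, where Hbb-bt was at 93.0 CPM in control, 118 in Jak2V617F and 175 in the double mutant.

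Hbb-bs followed the erythroid-like class and, in Ikk2CA, was present everywhere. In the erythroid-like class it was at 147, 1009, 171 and 271 CPM, and without its richest barcode in each library at 67.8, 435, 78.5 and 110.1 CPM. In the HSC-like class it was at 13.5, 56.0, 9.14 and 7.45 CPM, where the Ikk2CA value rests on 5 UMIs in 12 barcodes. In Ikk2CA it was at 19.5 CPM in the B cell-like, 15.1 in the granulocyte-monocyte-like, 17.0 in the plasmacytoid dendritic-like, 18.3 in the T-NK-like and 19.4 in the megakaryocyte-like class. In control the B cell-like class had 1.46 and the granulocyte-monocyte-like class 1.71 CPM of Hbb-bs. The B cell-like, granulocyte-monocyte-like and T-NK-like classes of Ikk2CA also shared a make-up. Hbb-bt was 25.9%, 22.6% and 18.8% of their beta globin UMIs, close to the share in globin-dominated barcodes. In the Ikk2CA HSC-like class it was 72.2%, with only 5 Hbb-bs UMIs in the 12 barcodes. The megakaryocyte-like class was less like them. Of its barcodes thinned to equal depth, 6.13% had Hbb-bt and 8.60% Hbb-bs. In the B cell-like class these were 3.24% and 8.27%, and in the plasmacytoid dendritic-like class 3.25% and 8.92%. In Jak2V617F the neutrophil-like class had 226 CPM of Hbb-bs, all 159 UMIs of it in 1 of 68 barcodes.

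**Figure D4:**
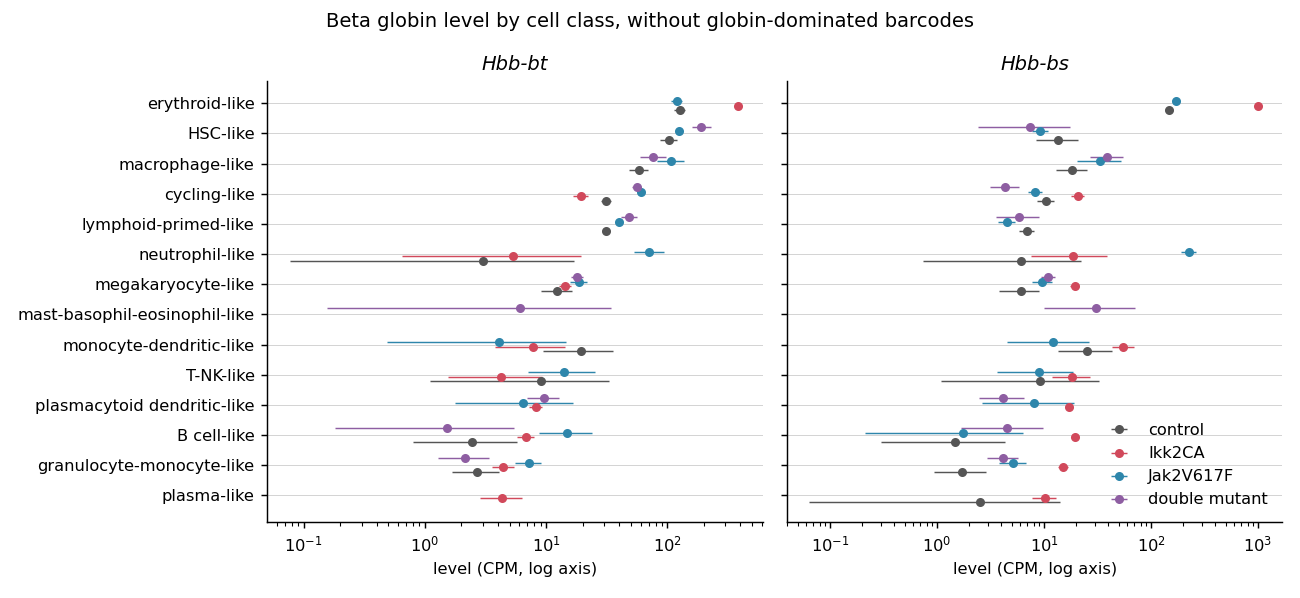
Level of Hbb-bt (left) and Hbb-bs (right) in CPM (log axis) by named cell class and library, without globin-dominated barcodes; points are libraries with at least 20 barcodes in the class, bars are exact Poisson intervals of the UMI sum, and classes at 0 UMIs have no point. Hbb-bt is far higher in the HSC-like than in the granulocyte-monocyte-like and B cell-like classes in the libraries shown, and Hbb-bs of Ikk2CA lies near 10 to 20 CPM in several unrelated classes, above the other libraries in the B cell-like and granulocyte-monocyte-like classes.

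Shares of barcodes with a UMI were compared at equal depth, with each barcode thinned to 5000 UMIs and shallower ones left out (838, 405, 1361 and 146 barcodes). Before thinning, 18.2%, 17.9%, 23.9% and 31.8% of kept barcodes had an Hbb-bt UMI, and after it 11.3%, 7.54%, 15.2% and 13.3%. Hbb-bs was found in 5.93%, 27.9%, 5.68% and 10.6% of kept barcodes before thinning, and in 2.95%, 9.49%, 2.58% and 2.83% after it. In the granulocyte-monocyte-like class, which lies outside the erythroid lineage and had median depths of 28619, 31397.5, 23956.5 and 51762 UMIs, Hbb-bt was found in 1.49%, 1.78%, 3.00% and 2.37% of thinned barcodes and Hbb-bs in 0.743%, 7.11%, 1.36% and 1.78%. In the HSC-like class, with median depths of 7885, 8712, 6220 and 12389 UMIs, Hbb-bt was found in 15.4% (10.5% to 21.5%), 33.3% (of 9 barcodes), 18.2% (16.3% to 20.1%) and 23.4% (12.3% to 38.0%). The Hbb-bt shares of the HSC-like class were above those of the granulocyte-monocyte-like class in all 4 libraries. Shares of that size were not particular to the HSC-like class. In control, Ikk2CA, Jak2V617F and the double mutant the macrophage-like class had 12.6%, 0% (of 5 barcodes), 25.5% and 22.7%. The unnamed clusters had 14.4%, 11.0%, 17.5% and 15.2%. For Hbb-bs in Ikk2CA the B cell-like class (8.27%) and the plasmacytoid dendritic-like class (8.92%) were near the share over all its kept barcodes, so a share of that size was also found in classes outside the erythroid lineage. Its source was not tested. Hbb-bt-led barcodes were not particular to the HSC-like class. In Jak2V617F they made up 48 of 2211 HSC-like (2.17%), 31 of 1169 cycling-like (2.65%) and 201 of 7202 unnamed barcodes (2.79%), against 18 of 2051 lymphoid-primed-like (0.878%) and 1 of 376 granulocyte-monocyte-like ones (0.266%). In control they made up 4 of 193 HSC-like, 8 of 597 cycling-like and 74 of 4363 unnamed barcodes, and in the double mutant 2 of 52, 14 of 287 and 168 of 3762. In Ikk2CA 73 of the 78 were in unnamed clusters, 0 of 12 HSC-like barcodes were among them, and so were 0 of 1431 B cell-like ones (an upper bound of 0.210% from 3 counts).

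Across the UMIs of the 20 stem cell marker genes per 5000 UMIs, Hbb-bt increased step by step in all 4 libraries. Barcodes outside the erythroid-like class and not globin-dominated were used, and in each library the intervals of at least 1 pair of neighbouring ranges overlapped. From 0 to at least 10 stem cell marker UMIs, Hbb-bt went from 9.66 to 77.2 CPM in control, from 7.90 to 52.3 in Ikk2CA, from 7.43 to 105.7 in Jak2V617F and from 29.9 to 109 in the double mutant. Hbb-bs in the same ranges was at 4.14 and 11.3 CPM in control, 19.3 and 26.6 in Ikk2CA, 0.619 and 7.69 in Jak2V617F and 4.65 and 10.6 in the double mutant. In control and the double mutant it too was higher at each step, at lower levels than Hbb-bt. Its peaks at 6 to 9 marker UMIs in Ikk2CA (57.2 CPM) and at 3 to 5 in Jak2V617F (17.8 CPM) rested on 1 barcode each and were 23.0 and 3.81 CPM without it. The range is a per-barcode score and no cell type, and barcodes with more marker UMIs were shallower before thinning, with medians of 9488 against 21382 UMIs in control for the highest and lowest range.

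**Figure D5:**
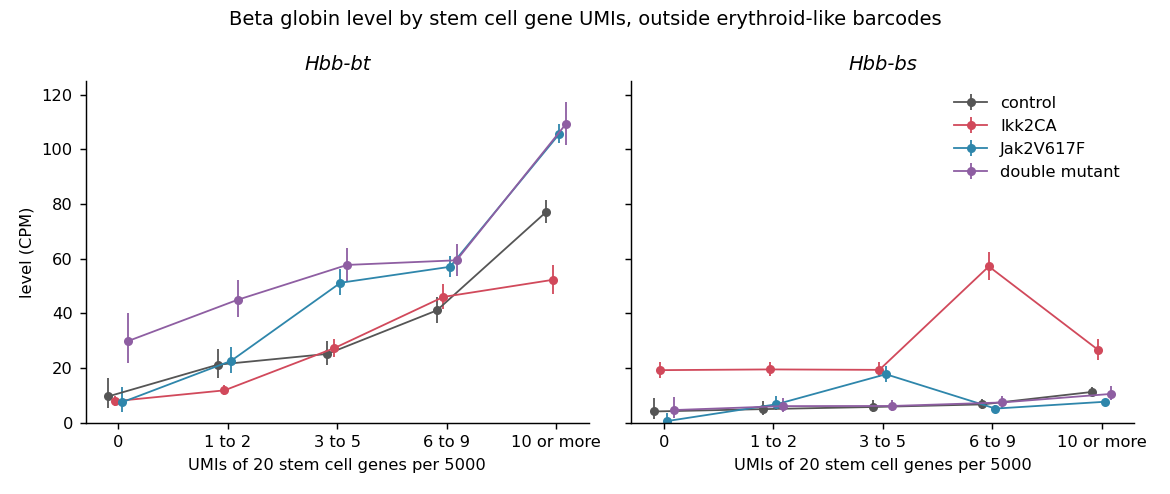
Level of Hbb-bt (left) and Hbb-bs (right) in CPM in barcodes thinned to 5000 UMIs, against the UMIs of 20 stem cell marker genes in the same barcode, outside the erythroid-like class and without globin-dominated barcodes; points are libraries and bars exact Poisson intervals. Hbb-bt is higher at each step to the right in all 4 libraries. Hbb-bs is higher at each step in control and the double mutant, at lower levels, and its peaks in Ikk2CA at 6 to 9 and in Jak2V617F at 3 to 5 marker UMIs rest on 1 barcode each.

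The other globin genes were close to absent. Hbb-y, an embryonic beta gene, had 1, 4, 4 and 5 UMIs in the kept barcodes of control, Ikk2CA, Jak2V617F and the double mutant, Hbb-bh1 had 1 in Jak2V617F alone, Hba-x, the embryonic alpha gene, had 1 in Ikk2CA alone, and Hbb-bh2 had 0. The theta genes had 1, 3, 2 and 3 UMIs (Hbq1a) and 0, 18, 4 and 0 (Hbq1b), and the 18 of Hbq1b in Ikk2CA lay in 10 barcodes.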

How the data were processed

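Droplet single-cell RNA was measured in 4 libraries, 1 pool of 5 mice for each genotype. The authors deposited 1 matrix of UMI counts per library, with 32285 genes. The matrices name Cell Ranger 4.0.0 per the file headers, whereas the series' design text names version 3.0.1. The submitters' processing notes list the mouse build mm10 and Seurat 4.0.0. How reads that fit more than 1 globin gene were counted is not given in the sources used here. No other sample columns were in the files (0).

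From the deposited counts, barcodes with 500 to 7500 genes and under 10% mitochondrial UMIs were kept, and counts were summed per library and expressed as CPM. The kept sums, from 102362297 to 197836491 UMIs, make counting error small for each library total, and 1 library per genotype leaves no replicate error to measure. Ratios were read for genes with at least 10 CPM in either group, a gene at 0 was set to 3 UMIs, and a gene past 2-fold was called. Intervals are exact Poisson or binomial ones at 95%. No p-value was computed. The genes named were the 4 members, the other globin genes, up to 5 genes of each list by level in globin-rich barcodes, and the 12 genes with the highest ratio in them. Other genes, and the ranking in Hbb-bt-led barcodes, were picked after their values were seen. A few genes that these rules name are not reported here. The 4 members and all gene lists were chosen with earlier results of these data known, and so were the naming rule for clusters and its markers. The limits for globin-dominated (10%) and Hbb-bt-led barcodes (at least 10 UMIs and 80% Hbb-bt) were set after seeing the data. For the gene lists, levels are CPM over the UMIs that are not globin.

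Barcodes of all libraries were clustered together with all globin genes left out (scanpy 1.11.5, 2000 variable genes, 30 principal components, 15 neighbours, Leiden resolution 1, and 0.5 as an alternative). To be named, a cluster needed at least 3 markers of a class among its 25 leading genes. That class also needed more markers among the top 10 than any other class. A cluster with Xist among the top 10 stayed unnamed. Doublets were kept, since Scrublet called 0, 208, 1 and 2 barcodes and so had not worked in 3 libraries. An alternative left out the highest scores at 0.8% per 1000 barcodes, 641, 815, 1769 and 243 barcodes. These scores were computed with the globin genes included, and so were the barcode totals used for scaling before the clustering. Other alternatives changed the barcode filter, the globin limits, thinning depth and scaling (factors of edgeR 4.0.16 and DESeq2 1.42.0, R 4.3.3). The scripts were tested on simulated data. Python 3.11.15 with numpy 2.4.6, scipy 1.17.1 and pandas 2.3.3 was used. Promoters and gene positions came from RefSeq and the GRCm38 annotation, and other strains' alleles of the beta genes were not examined.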

Additional observations from a re-analysis of the deposited data

Results flagged for a closer look

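The Ikk2-CA allele went with opposite directions of 3 values on the 2 backgrounds, and the difference was not tested, since each genotype is 1 library. For the sum of the 4 genes the log2 ratio of Ikk2CA over control was 3.64, whereas that of the double mutant over Jak2V617F was -0.15. For Hbb-bs these ratios were 5.16 and -0.29, and for Hbb-bt 1.52 and -0.26. Hba-a1 (4.71 and 0.19) and Hba-a2 (4.85 and 0.32) were above 0 on both backgrounds. Without the globin-dominated barcodes the ratios were 1.91 and -0.37 for Hbb-bs, 0.53 and -0.24 for the sum, 1.22 and -0.25 for Hba-a1 and 1.30 and 0.21 for Hba-a2, and Hbb-bt was below 0 on both backgrounds, at -0.70 and -0.24.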

How the results depend on the processing

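No paired analysis was possible because each genotype is 1 pooled library, and no replicate could be left out. The summed level of the 4 genes depended on the choice of barcodes, and apart from that choice, which decides which globin-dominated barcodes enter, the cause was not tested. As log2 ratios over control, Ikk2CA was at 3.64, Jak2V617F at 1.41 and the double mutant at 1.26. Over all deposited barcodes these became 3.25, -0.26 and 1.31. Without the barcodes of highest doublet score they were -0.011, 1.56 and -0.021, and without barcodes of at least 20 adult globin UMIs -0.025, 0.38 and -0.16. In barcodes with no Xist UMI they were 3.90, 1.47 and -0.11, and without the 10 richest barcodes of each library 2.63, 0.37 and 0.10. Without globin-dominated barcodes, an alternative chosen after seeing the data, they were 0.53, 0.24 and -0.000167. As a mean over barcodes they were 3.79, 1.78 and 1.55. Scaling left all directions in place: for Ikk2CA and the double mutant TMM factors gave 3.88 and 1.48, and median-of-ratios factors 3.87 and 1.49. Ikk2CA was at 3.58 without barcode sequences shared between libraries.

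Single genes changed direction in the same settings. Hbb-bs in Jak2V617F (2.50) was at -0.30 over all barcodes, -0.032 without barcodes of at least 20 adult globin UMIs, -0.19 without the 10 richest and -0.19 without globin-dominated barcodes. In the same order Hba-a1 in Jak2V617F (1.64) was at -0.67, -0.60, -0.99 and -1.27, and Hba-a2 (1.91) at -1.11, -0.52, -0.86 and -0.96. In the double mutant, Hbb-bs (2.20) was at -0.57 without the highest doublet scores, -0.30 without barcodes of at least 20 adult globin UMIs, -0.85 in barcodes with no Xist UMI, -0.29 without the 10 richest and -0.56 without globin-dominated barcodes. In that order Hba-a1 (1.83) was at -1.56, -0.86, -1.45, -0.99 and -1.52, and Hba-a2 (2.23) at -0.82, -0.40, -0.63, -0.52 and -0.76. Hbb-bt in Ikk2CA (1.52) was at -0.82 without the highest doublet scores, -1.01 without barcodes of at least 20 adult globin UMIs and -0.70 without globin-dominated barcodes.

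The share of kept adult globin UMIs in globin-rich barcodes was 37.3%, 95.02%, 69.2% and 76.8% in control, Ikk2CA, Jak2V617F and the double mutant. It was 53.6%, 95.6%, 77.7% and 82.8% with a limit of 10 UMIs, 15.2%, 94.3%, 60.05% and 65.7% with 50, and 0%, 93.6%, 57.8% and 58.8% with a limit of 1% of the barcode's UMIs. Over all deposited barcodes it was 81.7%, 98.1%, 71.9% and 93.6%. Without the highest doublet scores Ikk2CA had 37.9%, Jak2V617F 73.4% and the double mutant 43.6%. The share of barcodes with any adult globin UMI was 24.4%, 48.2%, 28.5% and 41.4%. It was 14.7%, 19.98%, 17.7% and 16.5% at 5000 UMIs, 10.4%, 13.5%, 12.9% and 12.5% at 3000, and 10.3%, 19.9%, 14.1% and 21.4% with at least 2 UMIs asked for. Over all barcodes control had 21.9%, Jak2V617F 26.6% and the double mutant 39.2%.

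Genes at least 2-fold higher in globin-rich barcodes numbered 162, and 523 with a limit of 50 UMIs. Genes at least 2-fold higher than control numbered 179, 25 and 69 in Ikk2CA, Jak2V617F and the double mutant, and 1604, 1008 and 1384 with no limit on low levels, where more genes are compared. In discarded barcodes under 500 genes that failed no other limit the summed level was 152552, 861224, 123117 and 731878 CPM, over fewer barcodes by construction. Hbb-bt was higher in the HSC-like than in the granulocyte-monocyte-like class in 4 libraries under each alternative run, although with the coarser clustering the values in Ikk2CA were 78.3 and 57.4 CPM. Hbb-bt-led barcodes made up 0.447%, 0.345%, 0.763% and 1.86% of kept barcodes when at least 20 UMIs were asked for, and 1.24%, 0.796%, 1.91% and 3.46% without the highest doublet scores, both chosen after seeing the data. Depth limits the count of such barcodes, and with 1 library per genotype no difference here has a replicate check.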

Other observations

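Without globin-dominated barcodes Hbb-bt was at 31.2, 19.3, 60.9 and 55.7 CPM in the cycling-like class of control, Ikk2CA, Jak2V617F and the double mutant, with Ikk2CA lowest. In the macrophage-like class it was at 58.0, 41.4, 107 and 76.5 CPM over 192, 6, 55 and 44 barcodes.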
